A study of Mus musculus with 2 samples.

Results

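Mitosis and G2/M genes are the genes whose mRNA accumulates as a cell prepares to divide and passes through division. Here they were 45 mouse genes chosen by name, among them cyclins, mitotic kinases, kinetochore proteins, kinesins and cytokinesis proteins, out of 22886 genes in the deposited values. All 45 were found, each on 1 line of the files. The genes were chosen with the ratios of these libraries known, so the ratios below are a description and no test was made. The series held 2 RNA sequencing libraries of polyA RNA from FACS-sorted cells that the labels call aerobic tumor cells, taken from subcutaneous LLC (Lewis lung carcinoma) tumors of wild type C57BL/6 mice. One library came from mice injected with vehicle and 1 from mice injected with clodronate, a drug that depletes phagocytes when it is given in liposomes. The labels give no dose, time, age or number of mice per library, and the strain, genotype and tissue are the same for both. There was 1 library per condition, so the condition cannot be told apart from the individual mice, the sort or the preparation of a library.

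Entry into mitosis is driven by Cdk1 bound to cyclin A or cyclin B, with the kinases Plk1 and Aurora A acting beside it. The spindle checkpoint holds chromosome separation back until the kinetochores are attached to microtubules, and the anaphase-promoting complex with its activator Cdc20 then marks cyclin B and securin for destruction. The central spindle, built by kinesins and the chromosomal passenger complex, finally guides cytokinesis. Many of these genes share a promoter element, the cell cycle genes homology region (CHR), which is bound by the MuvB complex. MuvB represses them in resting cells as part of the DREAM complex and activates them in G2 together with B-Myb and FoxM1. CCAAT boxes, which bind NF-Y, often lie close by.

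The promoters of these genes were read first, because the sequence does not depend on the libraries. A window from 250 bases before to 50 bases after the annotated start was available from RefSeq on GRCm38.p6 for 38 of the 45 genes (40 windows), and Ccna2, Tpx2, Foxm1, Aurkb, Incenp, Spc24 and Kif20a were without one. A CHR was searched for as TTTGAA or TTCGAA, and a CCAAT box as CCAAT, on both strands. A CHR was present in 75% of the windows of these genes, against 19.2% of all 32851 windows of the table. With its first base within 50 bases of the start, a CHR was present in 70% of their windows, against 5.31% of all windows and 3.33% of the 10604 windows of other genes that averaged 1 RPKM or more across the libraries, called the genes measured below. A CCAAT box was present in 77.5% of their windows and in 37.4% of all windows, and at least 2 CCAAT boxes in 55% and 11.7%. Both a CHR near the start and a CCAAT box were present in 65% of their windows and in 2.24% of all windows. By contrast, a site of the E2F type, searched for as TTTCGCGC, TTCCCGCC, TTTCCCGC or TTTGGCGC on both strands, was present in 2.5% of their windows, that is in Cdk1 alone, and in 3.49% of all windows. Among the 10604 windows of the other genes measured, 6.53% held such a site. In Cdca8 the CHR and a CCAAT box shared 1 base. A match is a run of letters and was not tested for binding.

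**Figure D1:**
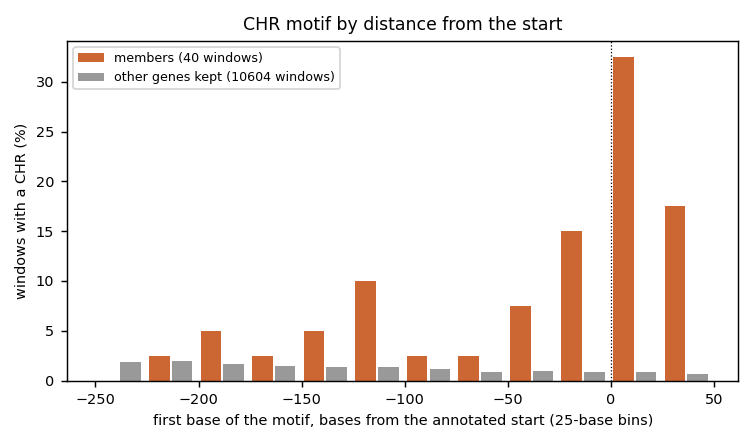
Share of promoter windows (vertical axis, percent) that hold a CHR starting in each 25-base bin (horizontal axis, bases from the annotated start), for the mitosis and G2/M genes (orange, 40 windows) and the other genes measured (grey, 10604 windows). In the orange bars the highest share is 32.5%, in the bin that begins at the start, while the grey bars stay below 2%.

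The following stretches, from 150 bases before to 30 bases after the start, show the arrangement in the genes on which the results turn, with the letters of CHR and CCAAT motifs in capitals. Motifs that lie on the other strand appear as their reverse complement.
Ccnb2, chr9:70421525-70421704, minus strand: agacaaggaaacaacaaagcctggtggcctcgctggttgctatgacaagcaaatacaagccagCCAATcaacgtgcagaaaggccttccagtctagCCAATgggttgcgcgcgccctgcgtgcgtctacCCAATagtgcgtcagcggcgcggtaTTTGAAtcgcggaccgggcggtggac
Cdk1, chr10:69352883-69353062, minus strand: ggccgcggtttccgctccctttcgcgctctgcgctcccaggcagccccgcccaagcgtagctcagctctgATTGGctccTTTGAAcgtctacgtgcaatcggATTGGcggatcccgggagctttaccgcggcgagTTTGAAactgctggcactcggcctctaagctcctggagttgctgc
Cdc20, chr4:118437314-118437493, minus strand: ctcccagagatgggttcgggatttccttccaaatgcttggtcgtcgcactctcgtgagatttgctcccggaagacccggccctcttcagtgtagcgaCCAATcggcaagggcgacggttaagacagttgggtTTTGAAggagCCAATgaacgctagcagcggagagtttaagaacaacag
Ube2c, chr2:164769779-164769958, plus strand: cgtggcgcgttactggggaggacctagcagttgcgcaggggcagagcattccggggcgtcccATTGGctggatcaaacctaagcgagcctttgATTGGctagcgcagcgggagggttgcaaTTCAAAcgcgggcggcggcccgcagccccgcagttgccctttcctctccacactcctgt
Top2a, chr11:99024160-99024339, minus strand: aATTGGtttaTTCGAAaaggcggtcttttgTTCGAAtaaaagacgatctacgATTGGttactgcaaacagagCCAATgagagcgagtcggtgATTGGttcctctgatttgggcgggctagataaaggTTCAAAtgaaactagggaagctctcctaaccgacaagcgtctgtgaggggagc
Racgap1, chr15:99651627-99651806, minus strand: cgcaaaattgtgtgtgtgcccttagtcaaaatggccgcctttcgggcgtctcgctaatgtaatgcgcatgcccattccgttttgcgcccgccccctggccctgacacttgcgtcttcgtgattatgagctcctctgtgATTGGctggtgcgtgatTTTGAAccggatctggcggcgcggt
Bub1, chr2:127831830-127832009, minus strand: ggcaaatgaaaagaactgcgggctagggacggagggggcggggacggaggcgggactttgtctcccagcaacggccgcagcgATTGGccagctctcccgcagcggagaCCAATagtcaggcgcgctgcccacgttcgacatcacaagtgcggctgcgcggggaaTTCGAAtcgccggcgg
Ccnb1, chr13:100786457-100786636, minus strand: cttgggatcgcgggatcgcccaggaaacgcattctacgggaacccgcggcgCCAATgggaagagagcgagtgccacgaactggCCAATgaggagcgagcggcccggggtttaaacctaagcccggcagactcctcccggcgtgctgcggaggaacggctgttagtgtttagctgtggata
Birc5, chr11:117849087-117849266, plus strand: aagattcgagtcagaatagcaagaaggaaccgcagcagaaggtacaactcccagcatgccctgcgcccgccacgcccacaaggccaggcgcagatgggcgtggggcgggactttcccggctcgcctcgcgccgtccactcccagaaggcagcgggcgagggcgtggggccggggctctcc

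Ccnb2, the gene of cyclin B2, holds 3 CCAAT boxes and a CHR that begins at base 5 after the start. In Cdk1 1 CHR begins 71 and another 15 bases before the start. The CHR of Cdc20 begins 18 bases before the start and that of Ube2c 29 bases before it. Ccnb1 holds CCAAT boxes 99 and 67 bases before the start and no CHR in this window. In Birc5 neither motif was found in the window, which says only that these letters are not in it.

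Levels are given in RPKM, reads scaled to transcript length and library size. Across the 45 genes the median level was 6.25 RPKM in the vehicle library and 13.1 RPKM in the clodronate library. Their summed level was 357 RPKM in the vehicle library and 720 RPKM in the clodronate library, 2.02 times as much. These were low to moderate levels for both libraries. Of the 45 genes, 36 lay below the median of all genes measured (11.1 RPKM) in the vehicle library and 20 below the corresponding median (11.3 RPKM) in the clodronate library. At least 10 RPKM were reached by 10 genes in the vehicle library and by 28 in the clodronate library. In bulk RNA, fewer cells of a kind and less RNA per cell cannot be told apart, and here neither can a different share of dividing cells and a different level in each of them.

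The log2 ratio was taken as log2((clodronate RPKM + 1)/(vehicle RPKM + 1)), a scale on which differences of weakly expressed genes are understated. It was read for the 10982 genes that averaged 1 RPKM or more across the libraries. Of the 45 genes 44 passed this filter, and Nek2, the gene of a centrosomal kinase, did not, with 0.630 RPKM in the vehicle library against 0.920 RPKM in the clodronate library. Ndc80, with 0.690 and 11.3 RPKM, passed this filter only through its level in the clodronate library. It is included in the 42, the 7 and the 17 below and is therefore no support for these counts of higher genes. Among the 44 genes, 42 had a ratio above 0, beside 51.6% of all genes measured. At least 3-fold higher in the clodronate library were 7 of the 44, beside 2.86% of all genes, and at least 2-fold higher were 17 of the 44, beside 6.95% of all genes. None of the 44 was at least 2-fold lower, beside 6.77% of all genes at 2-fold and 2.32% at 3-fold. Among the 8735 genes whose mean RPKM lay within the range of these genes, 2.45% were 3-fold or more higher and 2.34% 3-fold or more lower, and the shares at 2-fold were 6.96% and 6.87%. The median log2 ratio was 0.89 over the 44 genes and 0.02 over all genes measured. Within the 44 genes the ratios ran from -0.44 to 2.88 with an SD of 0.74. Over all genes in the same range of levels the SD was 0.76. Just inside the 3-fold limit stood Kif22 (log2 ratio 1.77) and Ube2c (1.59), and just outside it Foxm1 (1.49) and Top2a (1.48). Cks2 (1.01) and Ccnb2 (0.96) stood on either side of the 2-fold limit.

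**Figure D2:**
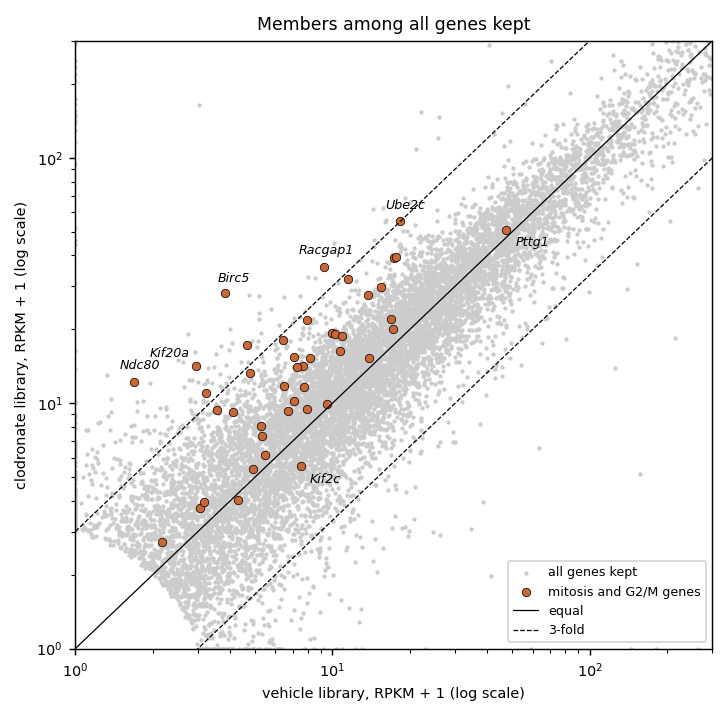
Level of each gene in the vehicle library (horizontal axis) and the clodronate library (vertical axis), as RPKM + 1 on log scales cropped at 300, with the 44 mitosis and G2/M genes in orange and all 10982 genes measured in grey. The orange points lie above the line of equal levels apart from Kif2c and Kif4, and 7 lie on or above the upper dashed line, which marks 3-fold.

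Among the drivers of mitotic entry, the cyclin genes were all higher in the clodronate library. Ccnb1 (cyclin B1) had 6.11 RPKM in the vehicle library against 14.5 RPKM in the clodronate library, a log2 ratio of 1.12. Ccnb2 (cyclin B2) had 8.95 and 18.4 RPKM, a log2 ratio of 0.96. Ccna2 (cyclin A2) had 6.68 and 13.1 RPKM, a log2 ratio of 0.88. Their partner kinase differed less. Cdk1 had 5.74 RPKM in the vehicle library against 8.33 RPKM in the clodronate library, a log2 ratio of 0.47, and Cks2, a small Cdk-binding protein, had 12.7 and 26.6 RPKM. Plk1, the kinase that promotes mitotic entry and centrosome maturation, had 3.77 and 12.3 RPKM, a log2 ratio of 1.48. Foxm1, the transcription factor that activates G2/M genes, stood beside it with 5.40 and 17.0 RPKM and a log2 ratio of 1.49. The Aurora A branch was closer between the libraries. Aurka had 4.26 and 7.10 RPKM, and Tpx2, which activates Aurora A on spindle microtubules, had 16.2 and 19.1 RPKM, log2 ratios of 0.62 and 0.22. Melk, a kinase gene of dividing cells, had 3.91 and 4.39 RPKM, a log2 ratio of 0.14.

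The chromosomal passenger complex joins the kinase Aurora B with 3 other proteins and corrects faulty attachments of chromosomes. All 4 of its genes had the higher level under clodronate, at a median log2 ratio of 1.31 and a summed level of 35.4 RPKM in the vehicle library against 104 RPKM in the clodronate library. Birc5 (survivin), on chromosome 11 of mm9 from 117710551 to 117717057, had 2.81 RPKM in the vehicle library against 27.1 RPKM in the clodronate library. Its log2 ratio of 2.88 was the highest of the 44 genes. The other subunits differed less and much alike. Cdca8 (borealin) had 6.99 and 20.7 RPKM, a log2 ratio of 1.44. Incenp, the scaffold of the complex, had 16.3 and 38.1 RPKM, a log2 ratio of 1.17. Aurkb itself had 9.27 and 18.1 RPKM, a log2 ratio of 0.90. The survivin gene was thus the lowest of the 4 in the vehicle library and the second highest in the clodronate library.

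**Figure D3:**
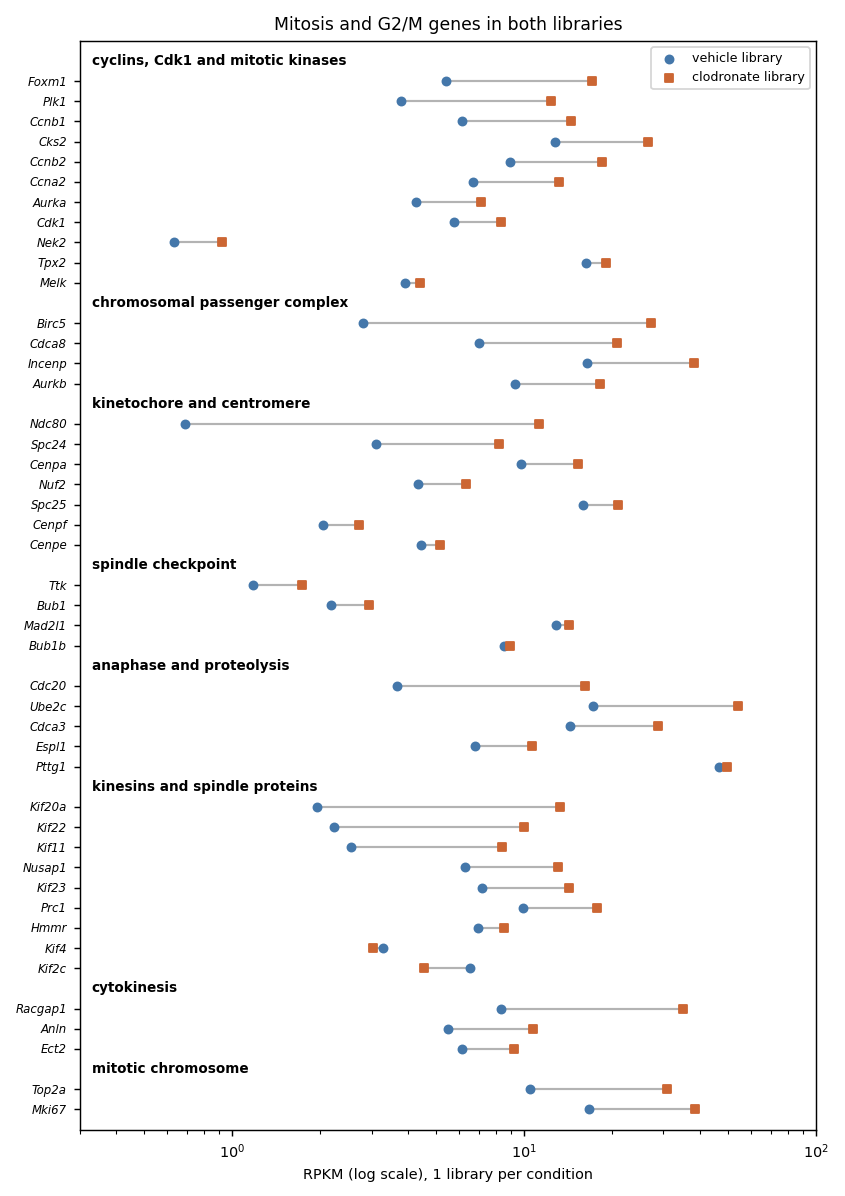
Level of each of the 45 genes, ordered within its role by log2 ratio, in the vehicle library (blue circles) and the clodronate library (orange squares), in RPKM on a log scale, joined by a grey line. Birc5 and Ndc80 show the longest lines, the spindle checkpoint genes show short lines, and in Kif2c and Kif4 the square lies to the left of the circle.

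At the kinetochore, the protein assembly that ties chromosomes to microtubules, all 7 genes had the higher level under clodronate, at a median log2 ratio of 0.46. Of the 7 genes 5 lay between 0.17 and 0.60, and Ndc80 stood far above them. Ndc80, on chromosome 17 of mm9 from 71845440 to 71876197, had 0.690 RPKM in the vehicle library against 11.3 RPKM in the clodronate library, a log2 ratio of 2.86. Its protein works in a complex of 4 subunits, and the genes of the other 3 did not show the same difference. Nuf2, its direct partner, had 4.32 and 6.34 RPKM, a log2 ratio of 0.46. Spc24 had 3.10 and 8.22 RPKM, a log2 ratio of 1.17. Spc25 had 15.9 and 21.0 RPKM, a log2 ratio of 0.38. In the vehicle library the level of Ndc80 was therefore the lowest of the 4, and in the clodronate library it was above those of Nuf2 and Spc24. Cenpa, the centromeric histone H3 variant, had 9.73 and 15.3 RPKM, a log2 ratio of 0.60. The large proteins Cenpe, a kinesin of the kinetochore, and Cenpf had log2 ratios of 0.17 and 0.29.

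The spindle checkpoint genes were the most alike between the libraries of all the role groups. Their summed level was 24.7 RPKM in the vehicle library against 27.9 RPKM in the clodronate library. At least 2-fold higher were 0 of the 4, which with so few genes is near the 6.95% of all genes measured. Bub1b, which makes the checkpoint inhibitor BubR1, had 8.50 and 8.93 RPKM, a log2 ratio of 0.06. Mad2l1, the gene of Mad2, had 12.9 and 14.3 RPKM, a log2 ratio of 0.14. The kinase genes Bub1 (2.18 and 2.95 RPKM) and Ttk (1.18 and 1.73 RPKM) had low levels in both libraries and log2 ratios of 0.31 and 0.32. Both hold a CHR and CCAAT boxes of the kind shown above for Bub1.

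The target of the checkpoint showed a larger difference. Cdc20, the activator of the anaphase-promoting complex that the checkpoint restrains, had 3.67 RPKM in the vehicle library against 16.2 RPKM in the clodronate library, a log2 ratio of 1.88. Ube2c, the ubiquitin-conjugating enzyme of the same complex, had 17.2 and 54.1 RPKM, a log2 ratio of 1.59 and the highest level of the 45 genes in the clodronate library. The substrates and effectors of this step differed less. Pttg1 (securin), which keeps separase inactive, was the highest of the 45 genes in the vehicle library with 46.4 RPKM and had 49.7 RPKM in the clodronate library, a log2 ratio of 0.10. Espl1, the gene of separase, the protease that cleaves cohesin, had 6.76 and 10.7 RPKM, a log2 ratio of 0.59. Cdca3, which takes part in the destruction of the mitotic inhibitor Wee1, had 14.4 and 28.7 RPKM, a log2 ratio of 0.95.

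Among kinesins, the motor proteins of the spindle, the ratios ran from below 0 to above 2. Kif20a (Mklp2), which carries the chromosomal passenger complex to the central spindle, had 1.95 RPKM in the vehicle library against 13.2 RPKM in the clodronate library, a log2 ratio of 2.27. The locus of Kif20a in the files overlaps those of Brd8 and Cdc23, and the use of strand in the counting is not given, so its reads cannot be told apart from theirs. Kif22, a motor bound to chromosome arms, had 2.22 and 9.98 RPKM, a log2 ratio of 1.77. Kif11 (Eg5), which pushes spindle poles apart, had 2.55 and 8.42 RPKM, a log2 ratio of 1.41. Kif2c (MCAK), a kinesin that takes microtubules apart at centromeres, went the other way with 6.52 and 4.53 RPKM, a log2 ratio of -0.44, the lowest of the 44 genes. Kif4, a chromokinesin, had 3.28 and 3.04 RPKM, a log2 ratio of -0.09. Kif2c and Kif4 were the only genes of the 44 with a ratio below 0. The spindle proteins Nusap1 (6.25 and 13.1 RPKM) and Hmmr (6.96 and 8.50 RPKM) had log2 ratios of 0.96 and 0.26. The locus of Nusap1 overlaps that of Oip5, that of Cdc20 overlaps Elovl1 and that of Ccna2 overlaps Exosc9, with the same limit on their reads.

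Racgap1, Kif23, Prc1, Anln and Ect2, genes of the central spindle and of cytokinesis, were higher in the clodronate library. Racgap1 (MgcRacGAP), on chromosome 15 of mm9 from 99450928 to 99482087, had 8.30 RPKM in the vehicle library against 35.1 RPKM in the clodronate library, a log2 ratio of 1.95. Kif23 (Mklp1), which forms centralspindlin with it, had 7.18 and 14.2 RPKM, a log2 ratio of 0.90. These subunits of 1 complex had close levels in the vehicle library and levels far apart in the clodronate library. Prc1, which bundles the microtubules of the central spindle, had 9.92 and 17.8 RPKM, a log2 ratio of 0.79. Anln (anillin), a scaffold of the contractile ring, had 5.46 and 10.7 RPKM, and Ect2, the exchange factor that activates RhoA at the division plane, had 6.10 and 9.21 RPKM. Their log2 ratios were 0.86 and 0.52.

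Mki67, the gene of the proliferation antigen Ki-67 that coats mitotic chromosomes, had 16.7 RPKM in the vehicle library against 38.4 RPKM in the clodronate library, a log2 ratio of 1.16. Top2a, the topoisomerase that untangles sister chromatids, had 10.4 and 31.0 RPKM, a log2 ratio of 1.48. Both were at least 2-fold and neither was 3-fold higher in the clodronate library.

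The genes kept much of their order between the libraries. Over the 44 genes, Spearman's rho of the vehicle and the clodronate level was 0.73 and Pearson's r of log2(RPKM + 1) was 0.72. These correlations are across genes of the same 2 libraries, which are not independent replicates, and describe them only. Spearman's rho of the log2 ratio was -0.14 with the vehicle level, 0.39 with the GC content of the transcript and -0.23 with its length. After the trends of the ratio with GC content and length over all genes were subtracted, the median over the 44 genes was 0.93 and 7 of them were at least 3-fold higher. The 26 genes with a CHR within 50 bases of the start had a median log2 ratio of 0.82, between -0.09 (Kif4) and 2.86 (Ndc80). The 11 genes without one had a median of 0.46, between -0.44 (Kif2c) and 2.88 (Birc5). Both ranges cover nearly the whole range of the 44 genes. At least 2-fold higher were 9 of the 26 and 4 of the 11, beside 17 of all 44 and 6.95% of all genes measured. The 9 and the 17 include Ndc80, which passed the filter only through the clodronate library. The 2 groups thus had similar shares at 2-fold, and their difference was not tested. Of the 7 genes with neither this motif nor a CCAAT box in the window, namely Birc5, Kif2c, Mad2l1, Melk, Nuf2, Nusap1 and Pttg1, only Birc5 was at least 2-fold higher.

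Other genes of the cell cycle that are not among the 45 were taken from lists by function. In 5 lists of further mitosis genes, 100 genes were measured, of which 71 had a ratio above 0, beside 51.6% of all genes measured. Among the 100 genes 19 were 2-fold or more higher and 2 were 2-fold or more lower, beside 6.95% and 6.77% of all genes. Their median log2 ratio was 0.29. The spindle and cytokinesis list had a median of 0.73 over 24 genes, with Cep55, a protein of the final cut between daughter cells, at 0.898 and 6.76 RPKM, and Arhgef39 listed at 0 in the vehicle library and at 4.26 RPKM in the clodronate library. The list of mitotic entry regulators had a median of 0.78 over 13 genes. In it Cdc25c, the phosphatase that activates Cdk1, was listed at 0 under vehicle and at 5.68 RPKM under clodronate, whereas Ensa, an inhibitor of the phosphatase PP2A, had 97.7 and 50.4 RPKM. For the further kinetochore and centromere genes the median was 0.22 over 30 genes, from Cenpl (9.05 and 2.31 RPKM) to Cenpw (0.111 and 5.23 RPKM). Condensin and cohesin genes had a median of 0.28 over 17 genes, with Cdca5 (sororin) at 3.92 and 10.4 RPKM and Wapal, which releases cohesin, at 21.9 and 11.5 RPKM. Subunits and regulators of the anaphase-promoting complex, the last of these lists, had a median log2 ratio of 0.03 over 16 genes. At least 2-fold higher were 0 of them, which is near the 6.95% of all genes measured. The lowest of them was Fbxo5 (Emi1), an inhibitor of the complex, with 6.97 and 0.942 RPKM, whereas Cdc20 and Ube2c, described above, were at least 3-fold higher. Cep55, Arhgef39, Cdc25c, Cenpw, Ska3, Sgol1, Gtse1, Ccnf and Fam83d, all among the 19, passed the filter only through their level in the clodronate library. These genes are therefore no support for the count of 19. Depdc1b and Fbxo5 passed it only through the vehicle library. Such genes enter the counts and medians because of the library in which they are high.

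Separate lists hold the genes that control the cycle and those that act before mitosis. MuvB, Rb and E2F regulators had a median of 0.02 over 19 genes, with Lin52, a MuvB subunit, at 1.64 and 10.7 RPKM and Lin54, its DNA-binding subunit, at 10.7 and 6.29 RPKM. The D cyclins and their partners had a median of 0.34 over 6 genes, with Ccnd1 at 15.0 and 34.8 RPKM. Of 7 CDK inhibitors 3 were measured above the filter, with a median of -0.06. Cdkn1b (p27) had 33.9 and 21.2 RPKM, Cdkn1a (p21) had 239 and 229 RPKM and Cdkn2c (p18) had 6.35 and 7.48 RPKM, and Cdkn2a and Cdkn2b were listed at 0 in both libraries. Cdkn2d and Cdkn1c, below the filter, were at 0 under vehicle and at 1.25 and 0.470 RPKM under clodronate. DNA replication and G1/S genes had a median of 0.53 over 39 genes, from Ccne2 (2.19 and 0.728 RPKM) to Mcm2 (4.19 and 22.4 RPKM). Of the 39 genes 11 were at least 2-fold and 1 at least 3-fold higher, beside 6.95% and 2.86% of all genes measured. The difference between any of these medians and that of the 44 genes was not tested.

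**Figure D4:**
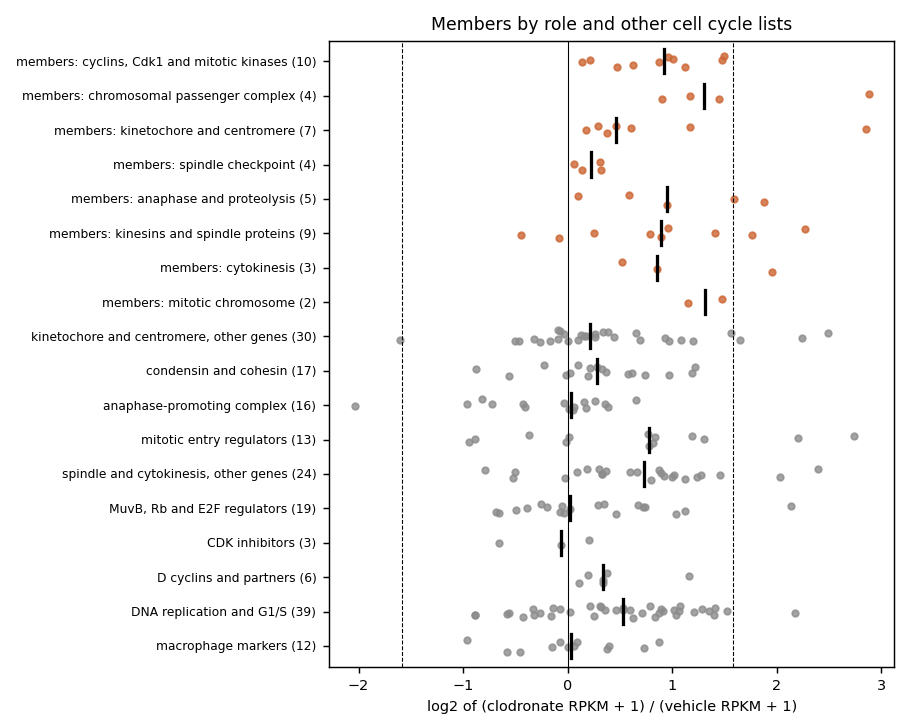
The log2 ratio (horizontal axis) of each gene that averaged 1 RPKM or more, for the mitosis and G2/M genes by role (orange) and for other cell cycle lists and macrophage markers (grey), with the number of genes in brackets. Black bars are medians and dashed lines mark 3-fold. The medians run from 0.22 for the spindle checkpoint to 1.32 for the mitotic chromosome genes among the roles and lie between -0.06 and 0.78 in the grey lists.

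Markers of cell types were read in the same libraries, since the labels call the cells tumor cells. The 12 macrophage markers summed to 22975 RPKM in the vehicle library against 21964 RPKM in the clodronate library, none was at 0, and their median log2 ratio was 0.03. They went both ways, with 7 higher and 5 lower in the clodronate library. The ratios ran from -0.96 for C1qc (3984 and 2043 RPKM) to 0.88 for Fcgr1 (22.5 and 42.3 RPKM). Lyz2, at 10534 and 11189 RPKM, made up a large part of both sums. The epithelial markers Epcam, Krt19, Cldn3 and Cldn4 stood at 0 in each library, and the 8 epithelial markers summed to 15.0 and 11.0 RPKM. The other 4 passed the filter, with Cdh1 (E-cadherin) at 6.14 and 6.44 RPKM, Krt8 at 3.67 and 1.33 RPKM, Krt18 at 2.97 and 3.19 RPKM, and Krt7 at 2.2 RPKM under vehicle and at 0 under clodronate. Epithelial markers were thus in part at 0 and in part low, and macrophage RNA was abundant in both libraries. Fibroblast markers, 8 in all, summed to 157 RPKM in the vehicle library against 76.4 RPKM in the clodronate library. Of the 7 measured, 6 were lower in the clodronate library, beside 5318 of all 10982 genes measured. Dcn (77.3 and 28.4 RPKM) and Col3a1 (62.1 and 34.4 RPKM) made up a large part of both sums. Col1a1, at 2.32 and 5.40 RPKM, went the other way. The 7 endothelial markers summed to 3.34 and 8.26 RPKM, with Pecam1 at 1.24 and 3.33 RPKM and Cdh5 at 0.480 and 3.24 RPKM. Vwf went the other way at 0.967 and 0.443 RPKM, Kdr had 0.650 and 0.831 RPKM, and Tek and Emcn were listed at 0. The 8 neutrophil markers found summed to 39.1 and 42.4 RPKM, with S100a9, Mpo, Elane, Ltf, Camp and Retnlg at 0. The sum came from S100a8, at 12.7 and 23.1 RPKM, and Csf3r, at 26.4 and 19.3 RPKM, which went opposite ways. The T and NK cell markers summed to 11.1 and 8.85 RPKM with Cd4 alone at 10.3 and 7.72 RPKM and Cd3e, Cd3g and Ncr1 at 0. Cd3d had 0.837 and 0.0789 RPKM, whereas Nkg7 went the other way at 0 and 1.02 RPKM. Of B cell genes, Cd79a had 1.1 RPKM in each library, Cd79b had 1.90 and 0.536 RPKM, and the factor Pax5 was at 0 in each library. A growth protocol in the labels names the blood progenitor line EML. Of progenitor markers, Cd34 had 2.60 and 1.02 RPKM, Gata2 had 1.46 and 0.877 RPKM, Kit had 1.36 and 0.717 RPKM, and Gata1 was at 0 in each library, as was the erythroid gene Alas2, while the erythroid factor Klf1 had 0.218 and 1.54 RPKM. The progenitor markers Flt3 and Myb went the other way from Cd34, at 0 under vehicle and at 0.232 and 0.166 RPKM under clodronate. The part of any of these cells in the ratios of the mitosis and G2/M genes was not tested.

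The files give RPKM and no read totals, but low values fell on steps. Multiplied by transcript length in kb, the low values of loci with transcripts over 3000 nt gathered at 0.0765 in the vehicle and at 0.0937 in the clodronate library and at multiples of these. Below 5.5 steps, 84.2% of 184 values in the vehicle and 79.3% of 358 values in the clodronate library lay within 0.15 of a whole step. If 1 step is 1 fragment, RPKM were scaled to about 13100000 fragments in the vehicle library and 10700000 fragments in the clodronate library. On this estimate, which uses GENCODE M21 transcript lengths in place of those of the authors, the 45 genes had a median of 236 fragments in the vehicle and 378 in the clodronate library. Birc5 had about 79 and 619 fragments, Ndc80 about 20 and 264, and Mki67 about 2197 and 4128. Under 50 fragments were estimated for 3 of the 45 genes in the vehicle library (Ndc80, Nek2 and Ttk), which makes their ratios the least precise. These are estimates and no interval was drawn from them.

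**Figure D5:**
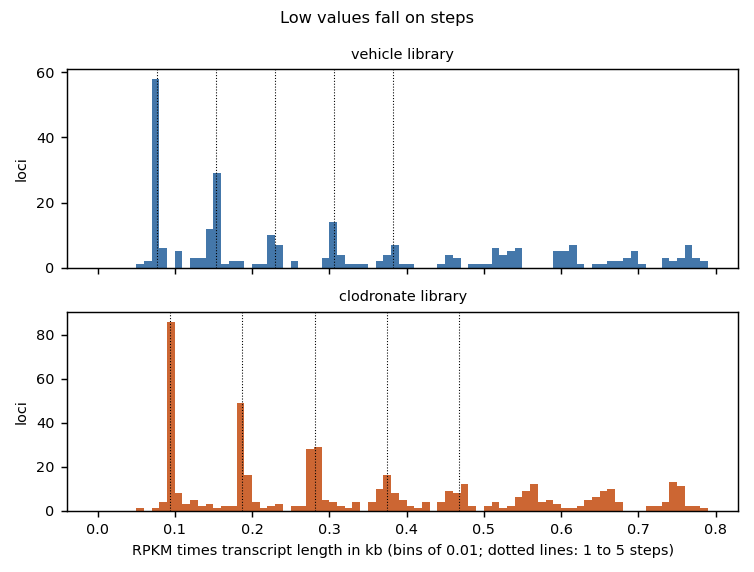
Number of loci (vertical axis) by RPKM times transcript length in kb (horizontal axis, bins of 0.01), for low values of the vehicle (blue) and the clodronate library (orange), with dotted lines at 1 to 5 steps. The first peak stands at 0.0765 in the vehicle and at 0.0937 in the clodronate library, and further peaks follow near its multiples.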

How the data were processed

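Sorted cells of LLC tumors were sequenced by the authors as 2 libraries, 1 for vehicle and 1 for clodronate, and groups were taken from the sample descriptions. The authors deposited RPKM values for 23170 loci per library. Per the labels, CASAVA 1.8.2, TopHat2 2.0.9, Bowtie 0.12.9, Cufflinks 2.2.1 and Cuffdiff were used with the build mm9, with no role or order given. The paper linked to the series describes no tumor experiment and no method for these libraries. RPKM of the same symbol were summed, which left 22886 genes, and 26 numeric symbols were replaced by RefSeq accessions. Start positions of the files count from 0 and are printed 1-based. The fold limits were 3-fold and 2-fold on log2(RPKM + 1), with genes of a mean of at least 1 RPKM kept. RPKM are not counts, and with 1 library per condition no test and no p-value was computed. The genes and lists were chosen with earlier results of these data known. Named were all 45 genes, defining markers, and from each other list at most 4 genes, the 2 highest and 2 lowest ratios. All 7 CDK inhibitors, and further genes that passed the filter only through 1 library, were named beyond this. Hjurp and Adgre1 were found under older symbols (A730008H23Rik, Emr1), and Ly6g, Trac, Hba-a1 and Hbb-b1 were not found. Some marker genes of these lists are not reported here. Transcript length and GC content came from GENCODE M21 (98.7% of genes kept). Promoter windows came from RefSeq, GRCm38.p6, and coordinates of both builds were never combined. The fold counts and the GC and length correction were tested on simulated data. In the simulation of fold counts, changes were planted only in genes of at least 10 RPKM, so it says nothing of weaker genes. Its noise was also set below the spread of the real ratios (SD 0.91 over all genes measured). It therefore cannot show how many genes pass a fold limit through noise in these libraries. A planned search of protein sequences for a degradation motif was not run. Python 3.11.15, numpy 2.4.6, pandas 2.3.3 and matplotlib 3.10.9 were used.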

Additional observations from a re-analysis of the deposited data

How the results depend on the processing

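Alternatives tried were another pseudocount (0.1), the filter dropped or raised to 5 RPKM, centring on the median, upper quartile scaling, the highest line of each symbol, the 2-fold limit, and a correction for transcript GC content and length. A background of genes in the same range of levels, and CHR counts near the start, were chosen after seeing the data. No paired analysis was possible because there was 1 library per condition, and leaving 1 out leaves no ratio.

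The median log2 ratio of the mitosis and G2/M genes stayed between 0.83 (upper quartile scaling) and 0.96 (pseudocount of 0.1), and 6 to 10 of them were at least 3-fold higher, apart from the 17 at 2-fold. Kif2c was below 0 under each alternative, and Kif4 was too except at a mean of 5 RPKM, which leaves it out. Only Bub1b changed sign, to a log2 ratio of -0.02, under the GC and length correction. The same correction moved the checkpoint genes Mad2l1 from 0.14 to 0.47 and Bub1 from 0.31 to 0.52. It moved Espl1 from 0.59 to 0.25, so single ratios depended on it. Ndc80 moved to 3.85 with a pseudocount of 0.1, by construction, since its vehicle level is low. Over all genes, 314 were at least 3-fold higher and 255 lower, against 532 and 480 with a pseudocount of 0.1, 127 and 101 at a mean of at least 5 RPKM, and 763 and 744 at 2-fold, where each setting changes by construction how many can pass. Dropping the filter cannot alter the counts, and no gene of the 45 has a repeated line, so these settings say nothing of stability. With 1 library per condition, no setting measures the spread between mice.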
